A study of Mus musculus with 12 samples.

Results

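DNA methylation was examined at the replication-dependent histone gene clusters of immortalized mouse embryonic fibroblasts (iMEFs) by reduced representation bisulfite sequencing (RRBS), which reads CpG cytosines in fragments released by a restriction enzyme. The members are the CpG cytosines listed in all 12 libraries within 4 intervals of mm10. The distal Hist1 interval covers 350 kb of chromosome 13 and holds 173 members (chr13:21710044-22041253, first to last cytosine), and the proximal Hist1 interval covers 260 kb and holds 91 (chr13:23542880-23778628). The Hist2 interval covers 65 kb of chromosome 3 with 40 members (chr3:96216224-96263731), and the Hist3 interval covers 25 kb of chromosome 11 with 26 (chr11:58945915-58962538). Together they hold 330 of the 606488 autosomal cytosines listed in all 12 libraries. The value of a cytosine is its beta value, the share of reads called methylated, from 0 to 1.

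The experimental line is R26M2rtTA/+;TetOcre;Sdhcfl/fl and the control line is R26M2rtTA/+;TetOcre;Sdhcfl/wt. Both carry the reverse tetracycline transactivator, a doxycycline-driven Cre and at least 1 floxed Sdhc allele, both were immortalized with SV40, and both received doxycycline, so that the experimental line can lose both Sdhc copies and the control line 1. Sdhc encodes a membrane subunit of succinate dehydrogenase. Each line was sampled on day 0, ahead of the drug, and then on day 5, day 9, day 12, day 16 and day 20, with 1 library per line and day. The main comparison set the 6 control libraries against the 5 experimental libraries of days 5 to 20, so each SD below is over time points of 1 line and not over independent cultures, and the p-values measure that spread. A difference between the lines and a difference due to Sdhc cannot be told apart with 1 line per genotype.

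Replication-dependent histone genes supply the core histones H2A, H2B, H3 and H4 and the linker histone H1 that package newly copied DNA. They are small genes without introns, present in many near-identical copies that lie close together, often head to head, and they are switched on together in S phase. Their messages end in a stem-loop in place of a poly(A) tail, and in dividing cells their promoters are among the CpG-rich starts that usually carry little DNA methylation. A few members of the clusters, such as H1f6 and H3f4, are known mainly from the testis. The larger Hist1 cluster of mouse also holds many tRNA genes.

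The promoters of 3 genes show what the assay could read at these genes. Each is the RefSeq promoter of GRCm38.p6, which mm10 corresponds to, from 250 bases before to 50 bases after the gene start, written 5′ to 3′ on the gene's strand with every CpG in capitals. H4c1 has 27 CpG dinucleotides and was read in all libraries, H3c4 has 8 and was read at its start, and H3f4, the gene with the largest difference between the lines, has 5, of which 0 were listed in all libraries.
H4c1, chr13:23761200-23761499, minus strand: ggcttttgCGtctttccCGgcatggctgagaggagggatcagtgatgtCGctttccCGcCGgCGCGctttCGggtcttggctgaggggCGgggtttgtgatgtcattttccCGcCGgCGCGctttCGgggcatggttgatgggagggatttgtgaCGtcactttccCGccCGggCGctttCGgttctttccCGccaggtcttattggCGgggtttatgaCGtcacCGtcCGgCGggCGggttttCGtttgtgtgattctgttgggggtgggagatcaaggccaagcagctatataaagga
H3c4, chr13:23575513-23575812, plus strand: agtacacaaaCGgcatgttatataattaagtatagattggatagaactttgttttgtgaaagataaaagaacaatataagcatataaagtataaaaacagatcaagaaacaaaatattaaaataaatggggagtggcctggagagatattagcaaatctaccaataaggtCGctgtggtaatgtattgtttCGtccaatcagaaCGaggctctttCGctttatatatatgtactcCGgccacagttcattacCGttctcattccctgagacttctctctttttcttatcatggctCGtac
H3f4, chr11:58961461-58961760, plus strand: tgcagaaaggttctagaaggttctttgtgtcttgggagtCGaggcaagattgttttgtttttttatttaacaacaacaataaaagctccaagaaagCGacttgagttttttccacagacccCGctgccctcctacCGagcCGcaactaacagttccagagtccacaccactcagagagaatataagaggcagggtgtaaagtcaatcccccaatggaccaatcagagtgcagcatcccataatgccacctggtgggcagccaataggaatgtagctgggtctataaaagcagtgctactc
In the H4c1 promoter, the 6 listed cytosines from position 23761269 to 23761318 were at 0 in each of the 12 libraries. In the H3c4 promoter, the 3 listed cytosines between 23575748 and 23575809 had a mean beta value of 0.00411 and a highest single value of 0.1.

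Promoter sequences were found for 60 of the 65 protein-coding histone genes of the intervals, those of H3c7, H2bc4, H2bc21, H4c14 and H3c1 being the rest. They had a median of 11.5 CpG dinucleotides per 300 bases, against 7 over all 32851 promoters of the table. The letters CCAAT, the CCAAT box, were found on either strand in 86.7% of the histone promoters and in 37.4% of all promoters. All 6 H1, 17 H2A, 15 H2B and 11 H3 promoters held them, and 3 of 11 H4 promoters did. TATAAA was found in 56.7% of the histone and 13.6% of all promoters. The octamer ATTTGCAT, known as the binding site of Oct1 (Pou2f1) and a part of H2B promoters, was found in 6 of 17 H2A and 5 of 15 H2B promoters, in 0 promoters of the other families and in 1.74% of all promoters. None of the 3 motifs contains another, and each was counted separately. Windows of head-to-head H2A and H2B genes can overlap, so a motif in the shared stretch may count for both genes. A match describes these letters only.

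The libraries listed between 932307 and 1716381 cytosines genome-wide and between 434 and 846 in the 4 intervals. The lowest number in both cases was that of control day 12, and the next lowest were 1394408 and 669. The files give no read counts, so the depth of each value is unknown and no interval is given for a single cytosine. The mean over 8 cytosines of the Sdhc promoter was 0.0256 ± 0.0376 (SD, n = 5) for the experimental and 0.0290 ± 0.0441 (SD, n = 6) for the control series, which says nothing about the loss of exon 4 and does not check the genotypes. Of 8 fibroblast genes, 6 had a promoter with at least 3 cytosines, and 0 of these passed the test (background 2.44%). Vim, an intermediate filament gene of mesenchymal cells, lay at 0.00572 and 0.00188 in the experimental and control series, and the collagen gene Col1a2 at 0.891 and 0.867. The lines were farthest apart at Prrx1, a homeobox gene of mesenchymal cells named here after its values were seen, with 0.190 ± 0.194 and 0.673 ± 0.198 (limma, M-value difference -4.41, SE 1.20, adjusted p = 0.0844) and overlapping ranges, and they already stood at 0.213 and 0.694 on day 0. RRBS measures no expression, so the cell type was not checked by it.

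The 2 Hist1 intervals had close mean beta values in both lines and on all days, Hist2 was low throughout, and Hist3 stood apart. In the distal Hist1 interval the mean over the 173 cytosines was 0.227 on day 0 and 0.226, 0.239, 0.243, 0.232 and 0.213 on the later days in the experimental line. The control line had 0.205, 0.222, 0.219, 0.246, 0.222 and 0.203 on the 6 days in order. The ranges overlapped, with means of 0.231 ± 0.0115 (SD, n = 5) and 0.219 ± 0.0156 (SD, n = 6). In the proximal interval the 2 series also overlapped, at 0.248 ± 0.0147 and 0.236 ± 0.0159. The 330 members together had means of 0.207 ± 0.00758 and 0.217 ± 0.0176, lower in each library than the mean over all autosomal cytosines listed in every library, which was 0.441 ± 0.00465 and 0.431 ± 0.00253 over the 2 series.

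In Hist2 the experimental line had mean beta values of 0.0751 on day 0 and 0.0548, 0.0380, 0.0512, 0.0678 and 0.0645 on days 5 to 20, and the control line had 0.0116, 0.0213, 0.0412, 0.0341, 0.0573 and 0.0444. The 2 ranges overlapped. In Hist3 the experimental line had 0.0964 on day 0 and 0.135, 0.179, 0.113, 0.101 and 0.146 afterwards, and the control line had 0.224, 0.417, 0.327, 0.624, 0.594 and 0.329. Here the lowest control library, that of day 0, lay above the highest experimental library, that of day 9. Without 17 cytosines upstream of H3f4, described below, the Hist3 difference of the experimental minus the control mean went from -0.284 to 0.00511. These 17 were taken out after seeing the data, because they differ. The cytosines left went in opposite directions, with differences of -0.0324 over the 7 inside a histone gene and 0.137 over the 2 elsewhere. Means over an interval are descriptions and carry no test.

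**Figure D1:**
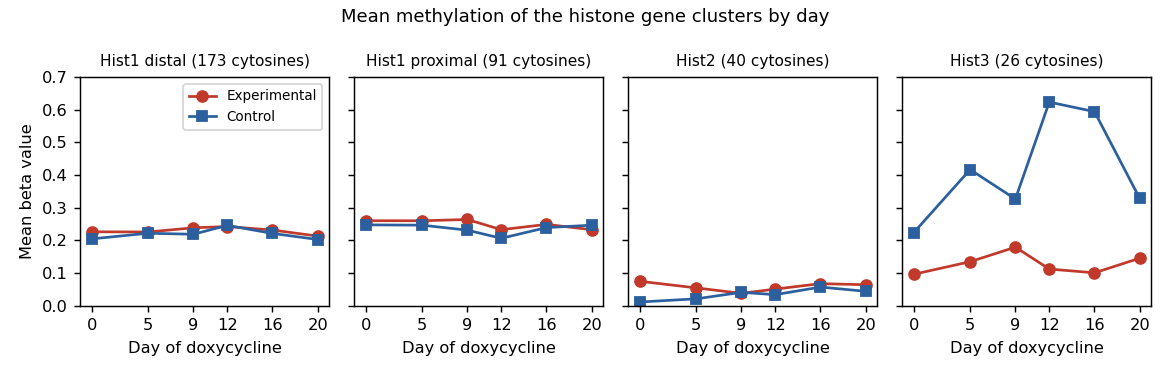
Mean beta value (y axis) of the cytosines of each histone gene interval by day of doxycycline (x axis) in the experimental line (circles) and the control line (squares), 1 library per point. The lines lie close together in the Hist1 and Hist2 panels, and in the Hist3 panel the control line runs from 0.224 to 0.624 while the experimental line stays between 0.0964 and 0.179.

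Methylation followed the distance from a histone gene start. Of the 125 cytosines within 500 bp of the nearest start, 123 had a mean beta value under 0.2 over the 12 libraries and 0 were above 0.8. Their mean was 0.0184 ± 0.00397 for the experimental and 0.0168 ± 0.00320 for the control series. More than 500 and up to 1500 bp away lay 50 cytosines, of which 27 were under 0.2. The 23 others all belonged to H3f4 or H1f1, and the 26 cytosines of this distance next to any other histone gene were all under 0.2. More than 5000 bp from a start, 69 of 153 cytosines were under 0.2, 64 lay from 0.2 to 0.8, and 20 were above 0.8. For comparison, 43.1% of all autosomal cytosines were under 0.2, 26.3% lay between and 30.6% were above 0.8. Distance and local CpG density were not separated.

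**Figure D2:**
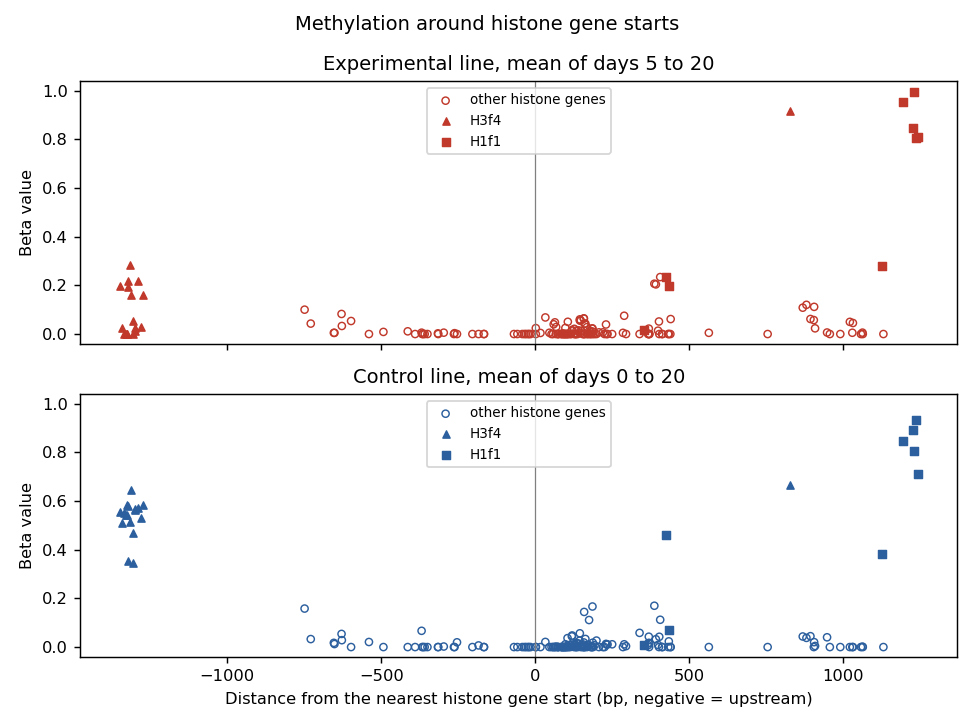
Beta value (y axis) of each cytosine within 1500 bp of the nearest histone gene start against its distance from that start in bp (x axis), as the mean of the experimental libraries of days 5 to 20 (upper panel) and of the 6 control libraries (lower panel). Points within 500 bp of a start stay near 0 in both panels, apart from cytosines of H1f1 and a few others, and the H3f4 points at 1275 to 1348 bp upstream lie higher in the control panel.

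Inside the genes the picture was the same, but many of these cytosines are also among those within 500 bp of a start. The RefSeq model of H2bc6, an H2B gene, covers far more than a histone gene because of an upstream start, and 8 cytosines lie only in that stretch, at 0.722 ± 0.103 and 0.763 ± 0.104 in the experimental and control line. The other 99 cytosines inside histone genes had means of 0.0229 ± 0.00497 and 0.0203 ± 0.00388, and 97 of them were under 0.2. The 170 cytosines in neither a histone gene nor its promoter had means of 0.342 ± 0.0132 and 0.319 ± 0.0105.

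A promoter spanned 1500 bp before and 500 bp after the gene start, with the mean over their cytosines as the beta value. Of the 65 protein-coding histone genes, 22 had a cytosine in this window that was listed in all libraries and 43 had none. At least 3 cytosines were present for 20 genes, namely 5 of 6 H1, 4 of 17 H2A, 3 of 17 H2B, 4 of 13 H3 and 4 of 12 H4 genes. H2bc6 and H1f4 share 1 set of cytosines, as do H2ac20 and H2bc21, so these 20 promoters hold 18 distinct sets. The 18 are not all separate. The 7 cytosines of H2bc9 are among the 8 of H3c7, and the 3 of H3c14 are among the 6 of H2ac18. Whether reads from near-identical copies could be placed was not tested. Of the 20 promoters, 16 (80%) had a mean beta value under 0.05 over the 12 libraries, against 57.6% of the 13337 autosomal promoters with at least 3 cytosines. The median beta value was 0.0111 over the 20 promoters and 0.0256 over all.

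With limma on M-values (log2 of beta + 0.01 over 1 - beta + 0.01) and Benjamini-Hochberg adjustment over all promoters, 0 of the 19 histone promoters that varied passed the threshold of 0.05. The background was 2.44% (323 of 13231 promoters). Without adjustment 1 of the 19, H3f4, had a p-value under 0.05, where the background was 17.5%. The experimental mean was the higher in 9 and the lower in 10 of them, with a median difference in beta value of -2.2e-05 over the 20 promoters and 0.00251 over all. The slope over days did not pass the test in the 19 promoters (lowest adjusted p = 0.998, limma), nor in any of the 13231 (background 0%). Without adjustment 2 of the 19 slopes had a p-value under 0.05, those of H2bc6 and H1f4, which rest on the same 20 cytosines, and the background was 4.94%.

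**Figure D3:**
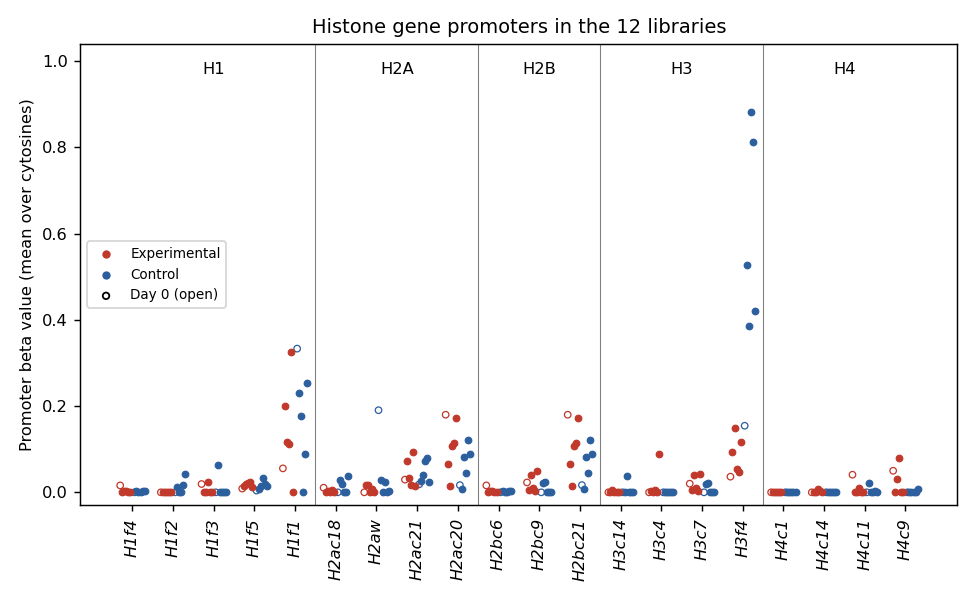
Promoter beta value (y axis) of the 20 histone genes with at least 3 cytosines, grouped by family, in the 6 experimental (left of each gene) and 6 control libraries (right), in order of day with day 0 as an open point. All genes except H1f1 and H3f4 stay at or under 0.190, and the control points of H3f4 from day 5 on lie between 0.387 and 0.882.

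Among the H1 genes, which encode linker histones, 4 of the 5 measured promoters were near 0. H1f4 was the lowest, with a mean of 0.00268 over the 12 libraries. H1f5, with 30 cytosines the most of any histone promoter, had values of 0.0143, 0.0199, 0.0215, 0.0238 and 0.0133 on days 5 to 20 in the experimental line, after 0.00869 on day 0. The control line had 0.00407, 0.00866, 0.0149, 0.0333, 0.0198 and 0.0157 from day 0 to day 20. No order of the lines was seen in H1f5, whose ranges overlapped. H1f6, the testis linker histone, had 0 cytosines in its promoter.

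H1f1, a linker histone gene of proximal Hist1, was the exception among the H1 genes. Its 3 promoter cytosines, all inside the gene, had a mean of 0.0556 on day 0 and of 0.2, 0.117, 0.111, 0.327 and 0 on the later days in the experimental line. The control line had 0.333, 0.231, 0.176, 0, 0.0887 and 0.254. Values moved up and down in both lines and the ranges overlapped, with no call (limma, M-value difference -0.36, SE 1.16, adjusted p = 0.901). The 6 cytosines 1125 to 1242 bp downstream of its start were at 0.783 ± 0.0754 and 0.761 ± 0.0610. At a like distance downstream of H1f2, 5 cytosines at 1022 to 1064 bp were at 0.0122 ± 0.0213 and 0.000312 ± 0.000763, and 3 at 957 to 1131 bp downstream of H1f3 were at 0 in all 12 libraries.

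In the H2A family, H2ac18 had the lowest mean over the 12 libraries (0.00871) and H2ac20 the highest (0.0848). The H2ac20 value rests on 8 cytosines inside its head-to-head neighbour H2bc21, an H2B gene, from chr3:96221191-96221478. They had 0.180 on day 0 and 0.0667, 0.0139, 0.108, 0.114 and 0.173 on days 5 to 20 in the experimental line, and 0.0167, 0.00807, 0.0811, 0.0459, 0.122 and 0.0885 in the control line. The day 0 libraries were far apart and the later ones overlapped, with no call (limma, M-value difference 0.68, SE 0.67, adjusted p = 0.648). H2aw, the H2A gene of Hist3, was at 0 or up to 0.0286 in 11 libraries and at 0.190 in control day 0. Its 7 cytosines also lie inside Trim17, and are the listed promoter cytosines of Trim17 and of the pseudogene H2bu1-ps. Their mean was not called (adjusted p = 0.683, limma). Among H2B genes, H2bc6 had the lowest value, 0.00268, on the cytosines of H1f4. Its window was set on the upstream start of the long RefSeq model, and all of these cytosines lie inside H1f4. Any other start of H2bc6 was not assessed.

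The measured H4 genes were close to 0. H4c1 was at 0 in all 12 libraries and could not be tested, and the highest H4 mean was that of H4c9, at 0.0140. H4c9 had 0.05 on day 0 and 0, 0.0308, 0.0800, 0 and 0 on days 5 to 20 in the experimental line, and 0 in 5 control libraries with 0.00714 in control day 20. Its M-value difference of 0.94 (SE 0.59, adjusted p = 0.445, limma) was not called. Among the H3 genes, H3c14 was lowest, with a mean of 0.00373. This value rests on 3 cytosines far upstream of its start that also lie in the promoter of H2ac18, an H2A gene. H3c4 was at 0 in all 6 control libraries and at 0.00362, 0, 0.00439, 0 and 0.0900 on days 5 to 20 in the experimental line, after 0 on day 0. Its difference (M-value 0.89, SE 0.55, adjusted p = 0.437, limma) rests mostly on experimental day 20.

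H3f4, an H3 gene of the Hist3 interval related to the testis-specific H3 of human, had the highest level and the largest difference of the measured histone promoters. The gene lies at chr11:58961711-58962273 on the plus strand, within the extent of Trim17. Its 17 promoter cytosines fall in 74 bases, chr11:58960363-58960436, which is 1275 to 1348 bp upstream of its start and also inside Trim17, a gene for a tripartite motif ubiquitin ligase. The tables used here give gene ends only, so exon or intron was not assigned. The experimental line had a mean of 0.0363 on day 0 and 0.0943, 0.150, 0.0544, 0.0473 and 0.118 on the later days. The control line had 0.154 on day 0 and 0.526, 0.387, 0.882, 0.813 and 0.420 on those days. Every control library lay above every experimental library, by 0.00408 between the nearest of them, control day 0 and experimental day 9. The means were 0.0928 ± 0.0432 (SD, n = 5) and 0.530 ± 0.275 (SD, n = 6).

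The M-value difference of H3f4 was -3.52 (SE 0.83, adjusted p = 0.0513, limma), just short of the threshold. The call changed with the set of promoters and libraries. It passed in 5 of 23 other fits, among them the fit without control day 0 (0.0230) and the fit of promoters with at least 5 cytosines (0.0463), with adjusted p-values between 0.0209 and 0.167 over the 23 and the experimental line lower in each. The slope difference did not pass (adjusted p = 0.998, limma). On day 0, ahead of doxycycline, the experimental minus control difference was -0.118.

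The 17 cytosines were lower in the experimental series at all 17, by 0.161 to 0.582 in mean beta value. At 14 of them the unadjusted p-value was under 0.05 in limma (background 12.1%), and 1 passed the adjusted test (background 0.615%). H3f4 was singled out by these same values, so the counts are not a separate result. In 5 places both cytosines of a CpG were listed. At the first cytosine of these pairs the control line had 0, 0.582, 0.391, 0.6, 0.923 and 0.292 on the 6 days, and at the second it had 0.338, 0.471, 0.377, 1, 0.696 and 0.528. The experimental line had 0.0667, 0.0941, 0.333, 0, 0.0750 and 0 at the first and 0.0345, 0.0762, 0.0222, 0.1, 0.0429 and 0.2 at the second. The series overlapped at the first and not at the second cytosines. In control day 12, the library with the fewest cytosines, each of the 17 values was 0 or 1, and within a library many neighbours had the same value. Cytosines 74 bases apart or less can be read together, so the 17 are not independent.

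**Figure D4:**
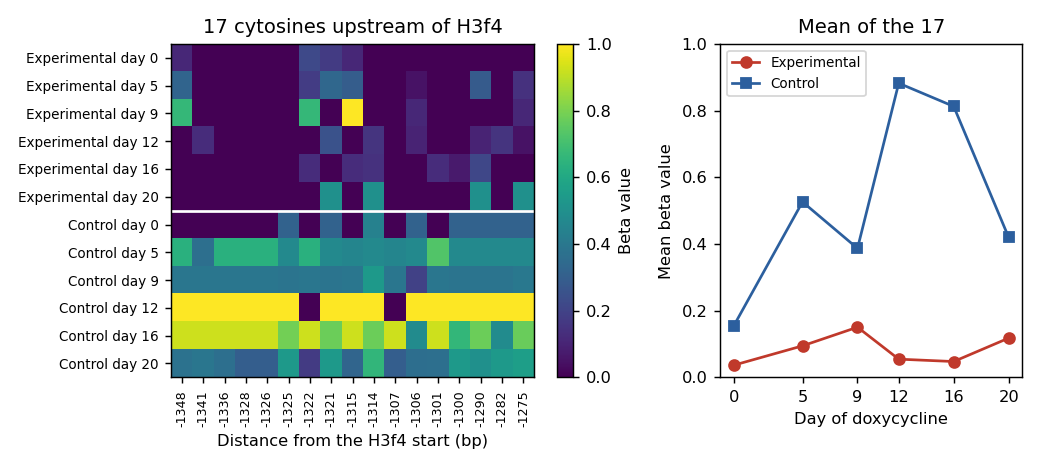
Beta values (colour, 0 to 1) of the 17 cytosines upstream of H3f4 (columns, by distance from the gene start in bp) in the 12 libraries (rows), and their mean (y axis) by day of doxycycline (x axis) in the experimental (circles) and control line (squares). The experimental mean stays at or under 0.150, and the control mean goes from 0.154 at day 0 through 0.526, 0.387, 0.882 and 0.813 to 0.420 at day 20. The highest mean is that of control day 12, in which all 17 values are 0 or 1.

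A cytosine 827 bp downstream of the H3f4 start, at chr11:58962538, did not share this pattern. It had 0.889 on day 0 and 0.933, 1, 1, 0.857 and 0.787 afterwards in the experimental line. The control line had 0.857, 0.696, 0.921, 0.0526, 0.636 and 0.829. Both lines were high there, apart from control day 12.

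Over single cytosines, 3 of the 265 members that varied passed the adjusted threshold of 0.05 in limma, against a background of 0.615% (3124 of 508351), and the other 65 members had the same value in all libraries. Without adjustment 40 of the 265 (15.1%) had a p-value under 0.05 and the background was 12.1%. The experimental series lay wholly below the control series at 5 members, where the background was 0.949%, and wholly above it at 1, where it was 1.32%. Of the 5, 4 lie among the 17 cytosines upstream of H3f4.

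The called cytosine of Hist3, at chr11:58960386, is 1325 bp upstream of H3f4. All 6 experimental libraries were at 0, and the values were 0.312, 0.471, 0.385, 1, 0.787 and 0.540 in the control libraries of days 0 to 20. The M-value difference was -7.79 (SE 1.24, adjusted p = 0.0230, limma). When single libraries were left out, it passed in 7 of 11 fits, with adjusted p-values up to 0.0641. It fell short without control day 16 or without experimental day 5, 12 or 16, and with days 12 to 20 only, an alternative chosen after seeing the data (adjusted p = 0.177, limma).

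The 2 other called cytosines lie in distal Hist1, 30322 and 47684 bp from the nearest histone gene start. The one at chr13:22005321 is inside Prss16, a gene for a thymus serine protease, and was lower in the experimental line. It had 0.621 on day 0 and 0.390, 0.684, 0.560, 0.595 and 0.515 afterwards in that line, and 1, 0.950, 0.902, 1, 1 and 1 in the control line (limma, M-value difference -5.33, SE 0.78, adjusted p = 0.0153). The one at chr13:21881427 lies in no annotated gene and was higher in the experimental line. It had 0.925 on day 0 and 0.932, 0.856, 0.973, 1 and 1 afterwards, against 0.361, 0.280, 0.599, 0.217, 0.295 and 0.0877 in the control line (limma, M-value difference 6.14, SE 0.91, adjusted p = 0.0166). At these cytosines the lines already stood apart on day 0. Both passed in each of the 11 fits that left out 1 library. With an offset of 0.001 in place of 0.01 neither passed, with adjusted p-values of 0.0744 for chr13:22005321 and 0.0786 for chr13:21881427 (limma).

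Cytosines at most 400 bp apart formed 61 runs, of which 42 held 3 or more. Of the 42, 27 had a mean under 0.2, 13 lay from 0.2 to 0.8 and 2 were above 0.8. The series did not overlap in 3 of the 42, upstream of H3f4 and in 2 runs of 3 cytosines on chromosome 13 where the experimental line was the higher. The run at chr13:21881427-21881703 had 0.912 ± 0.0737 and 0.668 ± 0.0694 in the experimental and control line, with 0.930 and 0.676 on day 0. This separation came from 21881427, the called cytosine, while the 2 others, at 21881575 and 21881703, had means of 0.892 ± 0.0817 and 0.849 ± 0.0925 and overlapped. The run at chr13:23717187-23717294, between Hfe and H1f2, had 0.856 ± 0.0718 and 0.599 ± 0.0992, with 0.781 and 0.550 on day 0, and each of its 3 cytosines taken singly overlapped. In Hist2, 8 cytosines 755 to 948 bp downstream of the H4c14 start were low in both lines, at 0.0611 ± 0.0111 and 0.0238 ± 0.0208, and their ranges overlapped. The runs were drawn from the same values and are described without a test. Runs were not formed outside the intervals, so the share of runs without overlap over the genome is not known.

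Of the 170 cytosines in neither a histone gene nor its promoter, 130 lie in distal Hist1, 29 in proximal Hist1, 9 in Hist2 and 2 in Hist3. The distal ones had means of 0.301 ± 0.0135 and 0.288 ± 0.0189, with 8 above 0.8, and the proximal ones had the higher means of 0.552 ± 0.0327 and 0.506 ± 0.0216, with 12 above 0.8. The 9 of Hist2, which include the 8 downstream of H4c14, had 0.122 ± 0.00706 and 0.0582 ± 0.0222. Their series did not overlap, the experimental line being the higher, and the lines stood at 0.144 and 0.0221 on day 0 already. None of the 9 was called. Between H4bc24 and H2ac12, histone genes that border a stretch without any, 121 cytosines had means of 0.322 ± 0.0150 and 0.308 ± 0.0207. Of these, 58 were under 0.2, 55 between and 8 above 0.8. In this stretch the promoter of Zfp184, a zinc finger gene, was near 0 (0.00280 ± 0.00395 and 0.00541 ± 0.00649, 8 cytosines). In the body of Pom121l2, 14 cytosines lay at 0.569 ± 0.0785 and 0.506 ± 0.0505, and 22 in Prss16 lay at 0.391 ± 0.0283 and 0.365 ± 0.0856.

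The Hist1 intervals also hold 36 tRNA genes, 33 of them in the distal one, and 15 of these had a member cytosine within 500 bp. The 44 cytosines had means of 0.183 ± 0.0151 for the experimental and 0.215 ± 0.0208 for the control series. Of the 15 genes, 6 had a mean under 0.1, among them n-TIaat7 (4 cytosines, 0.00772 ± 0.0130 and 0.0198 ± 0.0484) and n-TScga1 (5 cytosines, 0.0284 ± 0.0293 and 0.0123 ± 0.0193). Another 8 lay from 0.1 to 0.8, among them n-TVaac3 (6 cytosines, 0.215 ± 0.0385 and 0.335 ± 0.147). Above 0.8 was n-TIaat10, on 2 cytosines at least 330 bp away. The series overlapped at each of the 15. Of these genes 8 had 3 or more cytosines, and the values of the rest stand on fewer. The low level of the histone promoters was seen at some tRNA genes of the cluster and not at others.

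**Figure D5:**
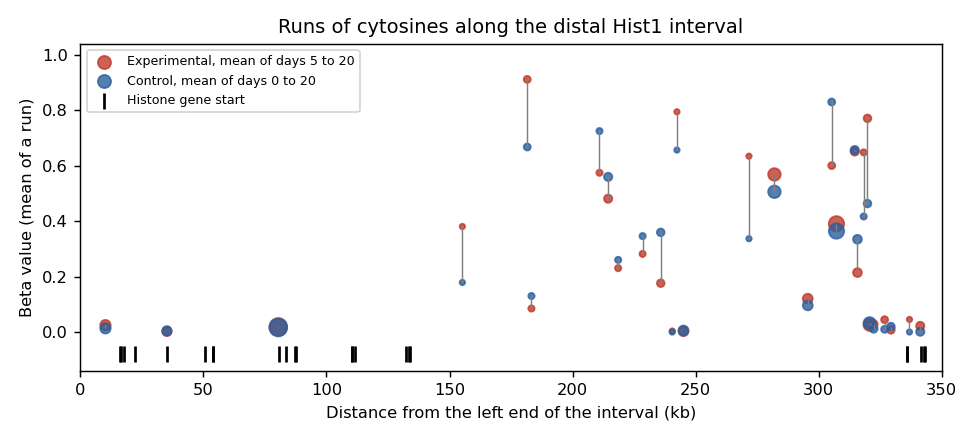
Mean beta value (y axis) of each run of cytosines along the distal Hist1 interval (x axis, kb from its left end) in the experimental series of days 5 to 20 and the control series, with point area growing with the number of cytosines, a grey line joining the series and ticks for histone gene starts. Runs at histone genes lie near 0 in both lines, and those in the stretch without histone genes spread from near 0 to 0.912.

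The other genes of the intervals were also compared. Hfe, which regulates iron uptake and sits within proximal Hist1, had a promoter value of 0.159 ± 0.117 and 0.116 ± 0.0497 on 3 cytosines (adjusted p = 0.805, limma). The long noncoding RNA gene Gm33387 was high, at 0.782 ± 0.0970 and 0.879 ± 0.0701 on 4 cytosines (adjusted p = 0.401, limma). Neither passed the test, and the ranges overlapped at both. The promoters of Zfp184 and Trim17 are given above, the latter with H2aw.

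Histone supply was followed through 12 genes that act on the clusters or their messages. Of these, 9 had a promoter with at least 3 cytosines, and 0 passed the adjusted test (background 2.44%). Without adjustment 1, Pou2f1, had a p-value under 0.05 in limma (background 17.5%). The median beta value was 0.00415 and the median difference 0.00156. Npat, the coactivator that cyclin E-CDK2 turns on at the histone locus, lay at 0.00415 ± 0.00466 and 0.000367 ± 0.000748, and Casp8ap2 (FLASH), which works with it, at 0 and 0.00181 ± 0.00444. Hinfp, which binds H4 promoters, was at 0 in the experimental series of days 5 to 20 and in 5 of 6 control libraries. It was at 0.333 in control day 12, the library with the fewest cytosines, on 3 cytosines. Lsm11, a component of the U7 particle that cuts histone messages, was the exception, at 0.505 ± 0.0840 and 0.595 ± 0.0614 on 5 cytosines (adjusted p = 0.342, limma).

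Of 15 histone genes outside the clusters, which are mostly expressed throughout the cell cycle or in germ cells, 11 had a promoter with at least 3 cytosines and 0 passed the adjusted test (background 2.44%). The replacement histone genes H3f3a (0.00368 ± 0.00265 and 0.00597 ± 0.00754) and H2az1 (0.0247 ± 0.00576 and 0.0156 ± 0.00914) were low, as was H2ax (0.0963 ± 0.00520 and 0.0927 ± 0.0131), the variant phosphorylated at DNA breaks. The highest were the testis linker histone H1f7, at 0.630 ± 0.0825 and 0.758 ± 0.0738 (adjusted p = 0.184, limma), and the H2A variant H2aj, at 0.679 ± 0.0472 and 0.682 ± 0.116. In both of these genes the ranges of the lines overlapped.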

How the data were processed

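The authors aligned paired-end RRBS reads to mm10 with Bismark (version not given in the sources used here) and deposited a percent methylated for every listed CpG cytosine, without read counts. Each percent was divided by 100. Cytosines with 1 value in all libraries were left out of the tests. M-values with an offset of 0.01 were fitted across all 508351 autosomal cytosines and 13231 promoters with limma 3.58.1 (R 4.3.3), two-sided, with Benjamini-Hochberg adjustment at 0.05. Slopes were tested as the interaction of line and day over the 12 libraries. The fits were tested on simulated data. Gene ends came from RefSeq GRCm38.p6. Strands came from RefSeq promoters for 25748 of 34333 genes and by symbol from an older annotation for the rest. No coordinate of that build was used. Tables were made with Python 3.11.15. The genes named are testis-specific histone genes of the intervals, promoters or cytosines past a threshold, the largest differences in each direction, the extremes of each family, other genes of the intervals with at least 3 cytosines, and the lists of histone supply and outside histone genes. The intervals, lists and this rule were chosen with earlier results of these data known. The alternatives were other offsets and scales, windows, cytosine minimums, strand averaging, pairing by day and libraries left out. Of the marker list of epithelial genes, 2 of 5 had 3 or more cytosines and 0 were called (background 2.44%).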

Additional observations from a re-analysis of the deposited data

Results flagged for a closer look

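The groups of libraries looked at were clusters, promoters and called cytosines in each line, with experimental day 0 left out. In 10 of the 54 groups, 1 library stood far from the others of its group, by the ratio of its gap to the range of the group (Dixon's test at 95%). By chance about 1 group in 20 does so, a rate that does not hold for the 7 groups in which all other libraries were at 0, since any value above 0 then stands apart whatever its size. Most of these are promoters at or near 0 in which a single library has a low value, and the depth of these values is unknown.

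The highest beta value among them was that of the H2aw promoter, at 0.190 in control day 0 against 0 to 0.0286 in the other control libraries. H3c4 was at 0.0900 in experimental day 20 against at most 0.00439. H1f3 was at 0.0643 in control day 5 and at 0.0230 in experimental day 12, with 0 in the others of each series. Its experimental day 0, outside the series, was at 0.0192, close to the flagged day 12. H3c14 was at 0.0390 in control day 9 and at 0.00585 in experimental day 9, again with 0 in the others. H4c11 was at 0.0226 in control day 5 against at most 0.00286, and at 0.0102 in experimental day 12 against 0 in the others of days 5 to 20. Its experimental day 0, outside the series, was higher than the flagged day 12, at 0.0408. H4c9 was at 0.00714 in control day 20 and H4c14 at 0.00130 in control day 5, against 0 in the other control libraries.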

How the results depend on the processing

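The number of called member cytosines was 3 and was 1 with an offset of 0.001, where both calls of distal Hist1 were lost, 5 with experimental day 0 counted in the experimental group, and 2 to 6 with 1 library left out, the highest without control day 0 and 5 without control day 12. With day as a replicate block it was 0, and so was the count over all cytosines, with adjusted p-values (limma) of 0.164 for chr11:58960386, 0.184 for chr13:22005321 and 0.243 for chr13:21881427. Over all promoters, the deviations of the 2 lines from their means had correlations between -0.0366 and 0.0192 on the same day (days 5 to 20). These were not computed for single cytosines, so whether day matters at the called cytosines was not tested. The number of called histone promoters was 0 and was 1 (H3f4) with a trended prior, with experimental day 0 counted in the experimental group, with at least 5 cytosines, and with cytosines that differ between libraries only, an alternative chosen after seeing the data. With 1 library left out it was 0 to 1, with 1 without control day 0. The number of slopes called was 0 under each of the 22 alternatives run. The difference in mean beta value of Hist2 was 0.0203 and moved to 0.00331 with the median over cytosines. That of Hist3 was -0.284 and moved to -0.499 with the median and to 0.00511 without the 17 cytosines upstream of H3f4, which was chosen after seeing the data. The cause of the other changes was not tested. The differences in mean beta value of the 20 histone promoters moved by less than 1 SD in each of 248 alternatives. Most of these left out 1 library, which cannot move the mean of a series by 1 SD whatever the values. H4c1, at 0 in all libraries, could not move either, so this count is no check of robustness. Of these promoters 8 could be recomputed from 500 bp upstream to 100 bp downstream, H3f4 not among them. The depth of single values is unknown, and each line is 1 line.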
